A study of Mus musculus with 2 samples.

Results

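Replication-dependent histone genes supply the bulk of the histone protein on which newly made DNA is packed. They were taken as every gene whose symbol begins with Hist1h, Hist2h, Hist3h or Hist4h, which gave 67 of the 31055 features counted. Of the 67 genes, 6 encode the linker histone H1, 18 encode H2A, 18 encode H2B, 12 encode H3 and 13 encode H4. On mm10 (GRCm38, with GENCODE vM21 models), 54 of them lie in the Hist1 cluster on chromosome 13, 10 in the Hist2 cluster on chromosome 3, 2 in the Hist3 cluster on chromosome 11 and 1, Hist4h4, on chromosome 6.

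The study followed pituitary stem cells (SCs) and their progeny after birth. Cells carrying GFP were sorted from Sox9iresGFP/+ pituitaries at postnatal day 3, with 3 male pituitaries pooled in 1 droplet library and 3 female pituitaries pooled in the other. All mice carried 1 reporter allele, in which GFP is made from the Sox9 locus, were on a C57BL/6J background and had received no treatment. Not every sorted cell need be an SC, since descendants that no longer make SOX9 can still hold GFP made earlier.

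Most genes of this family are transcribed, and their RNA stabilised, mainly while DNA is being replicated, so that new histones arrive with new DNA. Their mRNAs usually end in a short stem-loop in place of a poly(A) tail, and the stem-loop is bound by SLBP, which directs 3' end processing, translation and decay. Some members also give polyadenylated transcripts, which are known from cells that have stopped dividing and from differentiated tissues. Libraries primed on poly(A), as these were, capture RNA through a stretch of A residues, so a count of unique molecular identifiers (UMIs) measures the captured fraction of a histone mRNA and not all of it.

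The stem-loops of 8 of the genes described here are shown because they bear on which histone RNAs end without a poly(A) tail. Each was read from the GENCODE vM21 transcript on GRCm38, 5' to 3', with the 16 bases of the stem-loop in capitals. These loops span chr13:23621782-23621797 (minus strand) for Hist1h1e, chr13:21833029-21833044 (minus) for Hist1h2ap, chr13:23751572-23751587 (plus) for Hist1h2ab, chr11:58949349-58949364 (plus) for Hist3h2ba, chr13:23745047-23745062 (minus) for Hist1h3c, chr3:96247327-96247342 (plus) for Hist2h3c1, chr13:23581950-23581965 (plus) for Hist1h4d and chr13:22040966-22040981 (minus) for Hist1h4i.
Hist1h1e: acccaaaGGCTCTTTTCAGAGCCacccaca
Hist1h2ap: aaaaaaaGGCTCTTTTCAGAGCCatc
Hist1h2ab: aaacaaaGGCTCTTTTCAGAGCCacccaca
Hist3h2ba: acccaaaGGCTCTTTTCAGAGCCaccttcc
Hist1h3c: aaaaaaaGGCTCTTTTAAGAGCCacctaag
Hist2h3c1: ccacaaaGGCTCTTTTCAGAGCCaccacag
Hist1h4d: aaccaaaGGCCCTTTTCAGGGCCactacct
Hist1h4i: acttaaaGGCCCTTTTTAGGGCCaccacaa
A stem-loop lay within 100 bases of the stop codon in 43 of the 67 annotated transcripts. The form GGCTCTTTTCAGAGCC stood in 25 of them, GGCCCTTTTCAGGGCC in 7 and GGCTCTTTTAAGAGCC in 6. All 11 H4 genes with a loop had GGCCC or GGTCC at its start, and no gene of another family did. For 13 genes the annotation holds no 3' untranslated region, and a loop could not be looked for there.

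The annotated 3' ends differed in how far they ran beyond the stop codon. In 36 genes the annotated 3' untranslated region was shorter than 100 bases, as in Hist1h2ap, where the model ends 3 bases after the loop. In the other 31 it was longer, and the model of Hist1h1e runs on for 1153 bases, that of Hist3h2ba for 169 bases and that of Hist2h3c1 for 1167 bases beyond the loop. Hist1h2bc, an H2B gene of 2 exons, had no loop within 100 bases of its stop codon, and its model carries 742 bases of 3' untranslated region. A poly(A) signal stood near the end of the model in 17 genes, 16 of them with a long 3' end.

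RefSeq promoter windows, from 250 bases before to 50 bases after the start on GRCm38.p6, were matched for 62 of the 67 genes. The last 150 bases before the start are given for Hist1h1b, the linker histone gene with most UMIs here (chr13:21780626-21780775, minus strand), and for Hist3h2ba, an H2B gene whose level was lower in S-phase than in quiescent cells (chr11:58948761-58948910, plus strand). Capitals mark CCAAT and TATAAA on either strand.
Hist1h1b: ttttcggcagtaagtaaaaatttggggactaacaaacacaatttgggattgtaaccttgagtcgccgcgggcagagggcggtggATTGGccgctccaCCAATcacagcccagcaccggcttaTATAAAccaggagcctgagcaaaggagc
Hist3h2ba: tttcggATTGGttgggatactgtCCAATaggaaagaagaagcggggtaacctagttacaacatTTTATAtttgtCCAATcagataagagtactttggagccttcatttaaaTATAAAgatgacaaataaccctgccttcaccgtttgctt
Over the whole window and both strands, CCAAT, the site of NF-Y, stood in 53 histone promoters (85.5%) against 37.4% of all 32851 RefSeq promoters. TATAAA stood in 35 (56.5%) against 13.6%, and ATTTGCAT, the octamer bound by OCT1, in 13 (21%) against 1.74%. CCAAT was in every matched promoter of the H1, H2A, H2B and H3 genes and in 3 of 12 of the H4 genes. All 13 promoters with the octamer belonged to H2A (7) or H2B (6) genes. Windows of some neighbouring H2A and H2B genes on opposite strands overlap, so the same site can be counted for both genes. Both promoters shown hold CCAAT and TATAAA, and the levels of the 2 genes moved in opposite directions between quiescent and S-phase cells.

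Before filtering, 19 barcode sequences occurred in both libraries. After filtering, 10410 male and 5711 female barcodes remained, with medians of 8902.5 and 9789 UMIs. The labels call all cells stem cells. Clusters rebuilt from these counts, with the histone genes kept out of the genes used, were named from marker lists and are called SC-like, differentiating-like and so on. Over both libraries, Sox2 stood at 641 and 818 CPM and Sox9 at 116 and 142 CPM in the 2 quiescent SC-like clusters, against 39.4 to 159 CPM and 12.2 to 34.3 CPM in the endocrine-like clusters. Quiescent SC-like cells, in which neither the replication nor the mitosis list led, made up 20.3% of male and 44.7% of female cells, S-phase SC-like cells 7.22% and 10.2%, and G2/M SC-like cells 2.62% and 3.48%. A small cluster with SC markers and part of the mitosis list, called intermediate, held 1.63% and 2.64%. Differentiating-like cells made up 15.9% and 20.5%, endocrine-like cells 13.2% and 8.84%, and barcodes in clusters of low UMI count 31.5% and 1.80%. A level is given as UMIs of a gene or group scaled to 1000000 UMIs of the cells of a class (CPM), with an exact Poisson 95% interval, and a fold has limits that cross both intervals. These intervals cover counting error only, and sex and library cannot be told apart. The classes are clusters of these same cells, so folds between them are given as descriptions with no test, and with 1 library per sex the sexes could not be tested.

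Histone RNA was abundant and unevenly spread over the genes. The 67 genes together gave 328994 UMIs in the male library (3107 CPM) and 137026 in the female library (2181 CPM). Over both libraries, Hist1h1b (65997 UMIs), Hist1h2ap (64607), Hist1h1e (59602) and Hist1h4d (43704) held 50.2% of the histone UMIs, and the 15 genes with most UMIs held 86.7%. At the other end, Hist1h2aa, Hist1h2ba and Hist1h2bq had 1 UMI each, Hist2h2aa2 had 3 and the testis H1 gene Hist1h1t had 9. Because capture depends on A-rich stretches and is not scaled by length, the order of the genes by UMIs is not an order of their RNA copies.

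Summed histone RNA was several-fold higher in cycling than in quiescent SC-like cells in both libraries. In the male library it stood at 1226 CPM (1212 to 1241) in 2109 quiescent cells, at 8291 CPM (8244 to 8338) in 752 S-phase cells and at 9664 CPM (9591 to 9738) in 273 G2/M cells. In the female library the levels were 1034 CPM (1021 to 1047) in 2550 quiescent cells, 5721 CPM (5669 to 5773) in 582 S-phase cells and 9090 CPM (8990 to 9192) in 199 G2/M cells. These correspond to 6.76-fold (6.64 to 6.88) and 5.54-fold (5.42 to 5.66) over quiescent cells in S phase, and 7.88-fold (7.73 to 8.04) and 8.80-fold (8.59 to 9.01) in G2/M. The intermediate cluster lay between, at 2449 CPM (1.997-fold) in 170 male and 2507 CPM (2.43-fold) in 151 female cells. With the histone genes allowed into the clustering, the cells rich in histone RNA moved into an S-phase cluster of their own (18267 CPM male, 15748 CPM female), and G2/M cells fell to 1.37-fold and 1.40-fold over quiescent cells. With each cell assigned by its own phase-list UMIs, the S-phase folds were 4.74 and 3.01 and those of G2/M cells 9.62 and 10.6, so the split of histone RNA between the S and G2/M classes depended on how the cells were divided.

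**Figure D1:**
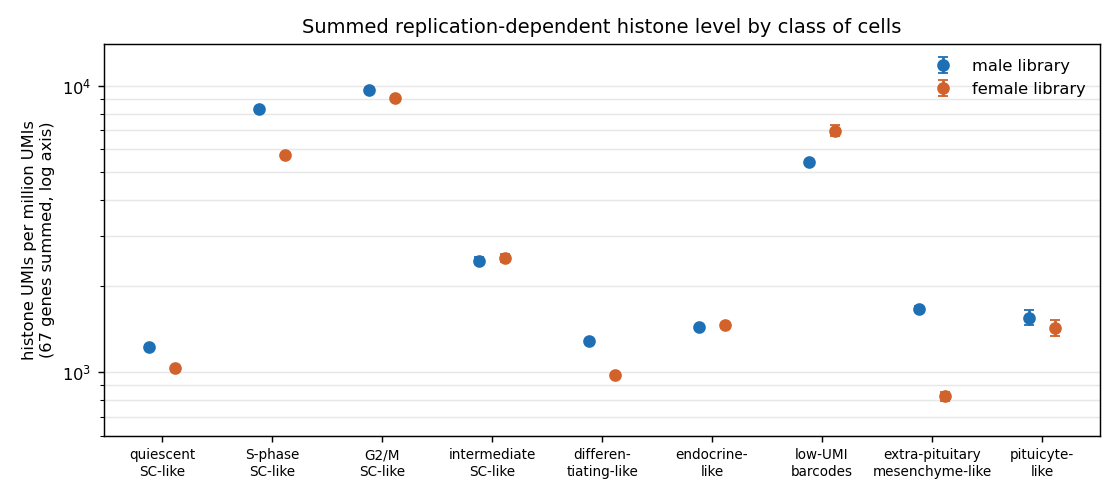
Summed histone level per cell class (CPM, log vertical axis) in the male and female library. Points are levels and error bars are exact Poisson 95% intervals, with 1 library per sex. S-phase and G2/M SC-like cells stand between 5721 and 9664 CPM in both libraries, against 1034 to 1226 CPM in quiescent SC-like cells, and the low-UMI barcodes stand at 5412 CPM in male and 6971 CPM in female cells.

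Within the S-phase class the cells were not alike. After each cell was thinned to 5000 UMIs, the median S-phase cell held 8 histone UMIs in the male library and 5 in the other, close to the quiescent medians of 5 and 4, while the upper quartiles were 51 and 20 against 8 and 7. At least 50 histone UMIs of 5000 were found in 25.8% of male and 20.7% of female S-phase cells, in 41.2% and 43.1% of G2/M cells and in 0 of 1879 male and 0 of 2438 female quiescent cells, which allows shares of up to 0.160% and 0.123%. Thinning left out 28 male and 12 female S-phase cells and 230 male and 112 female quiescent cells. At a finer resolution the S-phase class split into a cluster with 14262 CPM (male) and 10359 CPM (female) and a second with 1676 and 752 CPM.

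To place these cells along the cycle, thinned SC-like cells with at least 12 UMIs from the S-phase and G2/M lists were ordered by the share of those UMIs that came from the G2/M list. This ordering used no replication-dependent histone gene, though the G2/M list holds Cenpa, a histone variant gene. It took in 1630 of 6386 SC-like cells with at least 5000 UMIs. Cells with a G2/M share of up to 10% drew nearly all their list UMIs from the S-phase list. Summed histone RNA there was 1146 CPM (1063 to 1234) in male and 703 CPM (644 to 766) in female cells. That level was no higher than in cells nearly without list UMIs (1260 and 1055 CPM). It then climbed to 23655 CPM (23016 to 24306) at a share of 50 to 60% in male cells and to 18728 CPM (18126 to 19346) at 60 to 70% in female cells. Cells with a share above 90% were back at 5932 and 5503 CPM. The class averages given above mix cells from the low and the high bins. A G2/M share within 10 points of 50% was found in 177 cells, which lie near any division of S from G2/M.

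**Figure D2:**
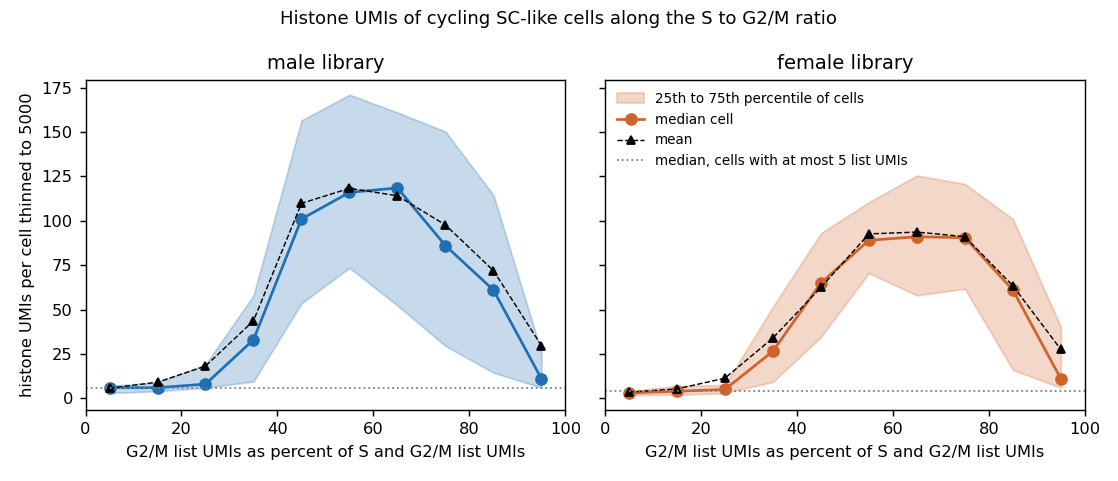
Histone UMIs per SC-like cell after thinning to equal depth (vertical axis), by the G2/M share of its phase-list UMIs (percent, horizontal axis), for each library. Drawn for each bin are the median cell, a band from the lower to the upper quartile of the cells, and the mean. A dotted line marks the median of cells nearly without list UMIs. Expressed as CPM, the bin means lie at 1146 CPM (male) and 703 CPM (female) in the first bin. They reach 23655 CPM in male and 18728 CPM in female cells between 50 and 70%, and drop to 5932 and 5503 CPM in the last bin.

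Most single genes followed the same course. Of the members with at least 30 UMIs in the binned cells, 22 of 48 in the male library had their highest level at a G2/M share of 50 to 60%, 10 at 60 to 70%, 8 at 70 to 80% and 7 at 40 to 50%. In the female library 14 of 44 had it at 50 to 60%, 13 at 60 to 70% and 12 at 70 to 80%. A gene could reach 30 UMIs through the bins where it was high, so these counts describe the genes that passed. The same placing was not done for all features. Some genes had little more than 30 UMIs over all bins, and their highest bin is uncertain. Hist1h1b, which encodes the linker histone H1.5, went from 169 CPM in the first bin to 4930 CPM at 60 to 70% in male cells and from 98.6 to 5026 CPM at 50 to 60% in female cells. Hist1h2bc and both genes of the Hist3 cluster departed from it. For Hist1h2bc the level was 30.9 CPM in the first bin of the male library, against 154 CPM in cells nearly without list UMIs. It was highest there, at 311 CPM, in the last bin, and in the female library it went from 14.9 CPM to 432 CPM at 80 to 90%. The intermediate cluster, where this gene was high, supplied 53 of 227 cells of that male bin and 21 of 69 of that female bin. Its part in these levels was not tested. Hist3h2ba was at 53.7 CPM (male) and 36.5 CPM (female) in the first bin, against 142 and 130 CPM in cells nearly without list UMIs, and its highest levels were 203 CPM at 70 to 80% and 186 CPM at 80 to 90%. Hist3h2a reached no more than 40.9 and 46.2 CPM in any bin, against 26.1 and 43.0 CPM in cells nearly without list UMIs.

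Counted gene by gene, nearly all members with usable counts were higher in S phase. At least 50 UMIs in the library were required of a feature, which 59 members passed in male and 55 in female cells. A gene could pass through the class where it was high, so these counts describe the genes that passed and not all 67. Of the 59, 52 were at least 2-fold higher in S-phase than in quiescent cells (background 6.54% of 14972 features), with a median fold of 8.66 against 0.974 over all features. In the female library 47 of 55 were (background 6.17% of 13967), with a median of 8.78 against 0.955, and 46 genes were called in both. None was 2-fold lower in the male library (background 3.24%), and Hist3h2a and Hist1h2bc were in the female library (background 4.0%). In G2/M cells 55 of 59 (background 7.24%) and 50 of 55 (background 6.11%) were at least 2-fold higher, with median folds of 11.1 and 11.9, and none was 2-fold lower in either library (background 6.95% and 10.4%).

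The H1 genes encode the linker histones that bind between nucleosomes. As a family they were 8.17-fold (7.91 to 8.44) higher in male and 7.42-fold (7.15 to 7.70) higher in female S-phase cells. Hist1h1b had 48.5 CPM in quiescent and 1667 CPM in S-phase male cells (34.4-fold, 32.0 to 37.0), and 44.0 and 1421 CPM in female cells (32.3-fold, 29.8 to 35.0). Hist1h1e was already at 229 CPM in quiescent male and 199 CPM in quiescent female cells, and its S-phase levels of 758 and 566 CPM were 3.31-fold (3.16 to 3.47) and 2.84-fold (2.68 to 3.01) above these. Its annotated 3' end overlaps the start of the Hist1h2be gene on the same strand, with only 0.976% of its windows unique. The counting could therefore move UMIs between the 2 genes or lose them. Hist1h1d had 18.4 and 117 CPM in male and 17.3 and 109 CPM in female cells. Hist1h1c, an H1 gene known also from resting cells, had 39.9 and 107 CPM (2.69-fold, 2.39 to 3.02) in male and 46.5 and 84.0 CPM (1.81-fold, 1.58 to 2.07) in female cells.

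The H2A genes, which encode a core histone, had the largest summed change of the 5 families. Their sum was 19.97-fold (19.2 to 20.8) higher in male and 13.8-fold (13.1 to 14.6) higher in female S-phase cells. Hist1h2ap went from 36.9 CPM in quiescent to 1896 CPM in S-phase male cells (51.4-fold, 47.4 to 55.8) and from 14.7 to 810 CPM in female cells (55.0-fold, 48.3 to 62.7). Of the windows at its 3' end, 7.65% were unique, the rest being shared mainly with Hist1h2ao, so its UMIs are uncertain in the same way. Hist1h2ae rose from 52.9 to 985 CPM in male and from 33.5 to 611 CPM in female cells. Hist1h2ab had 2.98 and 126 CPM in male and 1.71 and 77.9 CPM in female cells. The largest fold among the genes with at least 100 UMIs was that of Hist1h2af, at 0.183 and 29.1 CPM in male and 0.214 and 41.9 CPM in female cells, which over both libraries was 169-fold with limits of 82.9 and 397. Hist2h2ac, in the Hist2 cluster, was 5.81-fold (5.20 to 6.498) and 4.66-fold (4.04 to 5.38) higher. Hist3h2a went the other way, from 27.7 to 17.6 CPM in male cells (0.636-fold, 0.518 to 0.779) and from 40.9 to 17.2 CPM in female cells (0.420-fold, 0.331 to 0.528).

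The H2B genes, whose product pairs with H2A, had the smallest summed change, at 1.82-fold (1.74 to 1.91) in male and 1.31-fold (1.24 to 1.39) in female S-phase cells. Hist1h2bc and Hist3h2ba, the H2B genes with most UMIs, were both lower there. Hist1h2bc had 136 CPM in quiescent and 96.5 CPM in S-phase male cells (0.708-fold, 0.648 to 0.773), and 129 and 44.8 CPM in female cells (0.347-fold, 0.301 to 0.398). Hist3h2ba had 140 and 90.0 CPM in male cells (0.642-fold, 0.587 to 0.702), and 124 and 63.3 CPM in female cells (0.510-fold, 0.450 to 0.576). Hist2h2be was among the 5 genes of lowest S-phase fold but did not move beyond counting error, at 4.44 and 4.42 CPM in male and 4.92 and 5.63 CPM in female cells.

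The H3 genes, which encode the core histone that carries many of the known tail modifications, were 7.43-fold (6.88 to 8.02) and 9.10-fold (8.25 to 10.0) higher in S phase in sum. Hist1h3c was nearly silent in quiescent cells, at 1.33 CPM (male) and 1.45 CPM (female), and reached 117 and 138 CPM in S phase, which is 88.1-fold (58.4 to 138) and 95.1-fold (64.2 to 146). Hist1h3b had 0.321 and 47.2 CPM in male and 0.171 and 20.9 CPM in female cells. Hist1h3e was 3.95-fold (3.56 to 4.38) and 4.02-fold (3.44 to 4.70) higher. Hist2h3c1 was at 1.05 and 0.884 CPM in male and 0.598 and 0.980 CPM in female cells, within counting error, and no window of its 3' end is unique.

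The H4 genes, whose product pairs with H3, were 3.15-fold (3.03 to 3.28) and 3.22-fold (3.07 to 3.38) higher in S phase in sum. Hist1h4d was at 177 CPM in quiescent and 540 CPM in S-phase male cells (3.06-fold, 2.90 to 3.23), at 158 and 508 CPM in female cells (3.22-fold, 3.03 to 3.43), and higher still in G2/M cells, at 919 and 1011 CPM. Hist1h4h was 2.58-fold (2.41 to 2.77) and 2.41-fold (2.18 to 2.67) higher. Hist4h4, named here after its values were seen, was rare in every class, but was at least 2-fold higher in G2/M than in quiescent cells of both libraries, at 5.09 against 1.97 CPM (male) and 11.1 against 2.09 CPM (female).

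**Figure D3:**
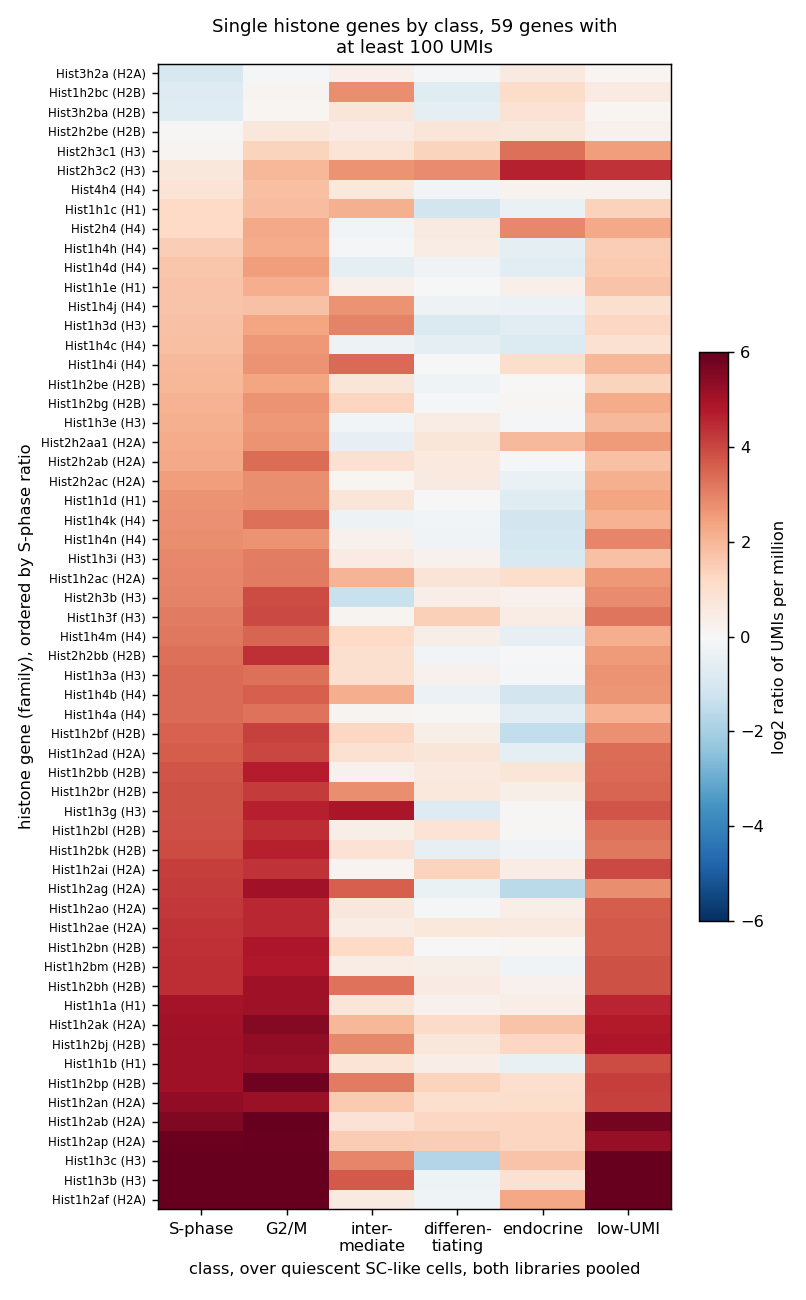
Fold of each class over quiescent SC-like cells (log2, colour, cut off at 6 in either direction), both libraries pooled. Rows are the 59 histone genes with at least 100 UMIs and columns are the classes. Most rows are raised in the S-phase, G2/M and low-UMI columns, while Hist3h2a, Hist1h2bc and Hist3h2ba are below 0 in S phase.

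Genes with a short annotated 3' end had a higher median fold in S phase than those with a long one, though the ranges overlapped widely. Over both libraries, all 31 genes with a short 3' end and at least 100 UMIs were at least 2-fold higher in S-phase than in quiescent cells, with a median of 14.4-fold and a range of 2.75 to 169. Of the 28 with a long 3' end, 21 were, with a median of 3.65-fold and a range of 0.505 to 89.4. A gene could reach 100 UMIs through the class where it was high, so these counts describe the genes that passed. The share over all features was not computed at this pooled limit. In the single libraries, from 50 UMIs, it was 6.54% (male) and 6.17% (female). In sum, short-ended genes went from 279 to 4867 CPM in male cells (17.5-fold, 16.9 to 18.0) and from 192 to 3181 CPM in female cells (16.6-fold, 15.9 to 17.3). Long-ended genes went from 947 to 3424 CPM (3.61-fold, 3.53 to 3.696) and from 842 to 2539 CPM (3.02-fold, 2.93 to 3.10). As a share of histone UMIs, long-ended genes held 77.3% (male) and 81.4% (female) in quiescent, 41.3% and 44.4% in S-phase, 82.0% and 89.3% in intermediate and 85.0% and 82.1% in endocrine-like cells. The split rests on annotated models, and 13 of the 36 short-ended genes, Hist1h1b among them, have no annotated 3' untranslated region at all. The 2 groups differ in sequence uniqueness as well (20 of 36 short-ended and 8 of 31 long-ended genes had fewer than 50% unique windows). The part of mapping in the split was not tested.

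**Figure D4:**
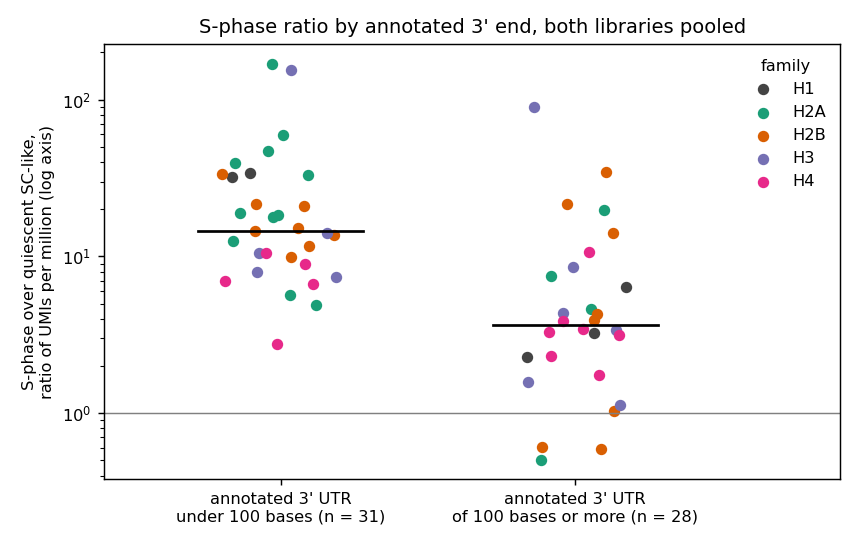
Fold of S-phase over quiescent SC-like cells (log vertical axis) for single histone genes with at least 100 UMIs, both libraries pooled. The 31 genes with an annotated 3' untranslated region under 100 bases are set beside the 28 with a longer one, coloured by family. Black lines mark the medians, at 14.4-fold and 3.65-fold.

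The intermediate cluster held a smaller set of raised histone genes, most of which were raised in cycling cells too. Its S-phase list was at 0.999-fold (male) and 0.822-fold (female) of quiescent cells and its G2/M list at 32.4-fold and 32.2-fold. Here 25 of 59 male (background 4.5%) and 21 of 55 female members (background 3.87%) were at least 2-fold higher, 16 of them in both libraries, with median folds of 1.96 and 2.15 against 0.954 and 0.942 over all features. Of the genes raised here in both libraries, all but Hist1h2bc were also at least 2-fold higher in G2/M cells of both, and all but Hist1h2bc and Hist1h1c in S-phase cells of both. At least 2-fold lower were Hist2h3b in male cells (1 member, background 8.5%) and Hist2h2aa1 and Hist1h3f in female cells (2 members, background 9.42%). The H2B genes led in sum, at 3.51-fold (3.29 to 3.75) and 4.76-fold (4.44 to 5.09). Hist1h2bc alone had 801 CPM (762 to 841) in male and 1050 CPM (999 to 1104) in female cells, 5.87-fold (5.39 to 6.40) and 8.12-fold (7.46 to 8.85) over quiescent cells and its highest level in any class described here. Hist1h1c, at 166 and 226 CPM, was 4.17-fold (3.49 to 4.97) and 4.86-fold (4.10 to 5.75) higher, and in the male library its interval (149 to 185) overlapped that of G2/M cells (144 to 162). Hist1h4i, an H4 gene named after its values were seen, was at 11.9 and 116 CPM (9.82-fold, 7.61 to 12.7) in male and at 10.5 and 122 CPM (11.7-fold, 8.85 to 15.4) in female cells. Hist1h1b, with 92.6 and 68.2 CPM, was 1.91-fold and 1.55-fold above quiescent cells.

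**Figure D5:**
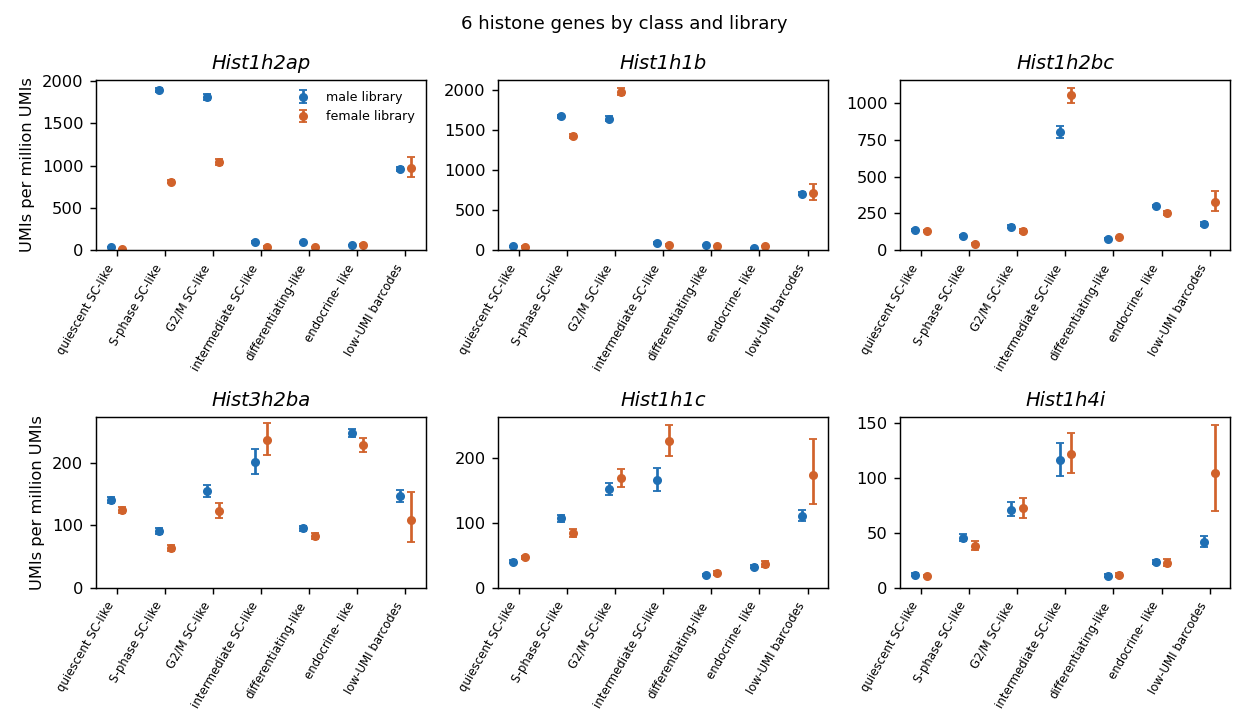
Levels (CPM, vertical axes) of 6 histone genes by cell class in the male and female library, with exact Poisson 95% intervals. Hist1h2ap and Hist1h1b are high in S-phase and G2/M cells, Hist1h2bc, Hist1h1c and Hist1h4i have their highest level in the intermediate cluster among SC-like cells, and Hist3h2ba is higher in endocrine-like (248 and 228 CPM) than in quiescent cells (140 and 124 CPM).

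In differentiating-like cells, which carry Lef1 and other early commitment markers and have left the SC state in part, the summed level was near that of quiescent cells. It was 1282 CPM (1267 to 1297) in 1652 male cells (1.05-fold, 1.02 to 1.07) and 980 CPM (964 to 996) in 1171 female cells (0.948-fold, 0.921 to 0.976), and the male value became 0.933-fold when only genes with at least 50% unique windows were summed. Here 8 members were at least 2-fold higher in each library (background 9.66% male, 7.32% female), with median folds of 1.12 and 1.23 against 0.985 and 0.959 over all features. They included Hist1h2ap, at 92.7 CPM (2.51-fold, 2.24 to 2.81) and 37.2 CPM (2.52-fold, 2.08 to 3.06), and Hist1h2ab, at 6.49 CPM (2.18-fold, 1.44 to 3.33) and 4.09 CPM (2.39-fold, 1.33 to 4.32). At least 2-fold lower were 5 male (background 19.1%) and 3 female members (background 18.5%), with Hist1h1c and Hist1h3c in both. Hist1h1c had 19.0 CPM (0.477-fold, 0.404 to 0.562) and 22.3 CPM (0.480-fold, 0.404 to 0.569). The shares of members called were thus 13.6% and 14.5% upwards, above the background, and 8.47% and 5.45% downwards, below it.

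Endocrine-like cells, from the clusters with lactotroph, gonadotroph, melanotroph and somatotroph markers, had a summed level of 1439 CPM (1424 to 1455) in 1378 male and 1463 CPM (1435 to 1491) in 505 female cells, 1.17-fold (1.15 to 1.201) and 1.42-fold (1.37 to 1.46) over quiescent cells. The small somatotroph-like cluster stood above the rest, at 1944 CPM in 92 male and 3532 CPM in 52 female cells, and 3 male and 4 female cells of it had at least 50 histone UMIs of 5000. Gonadotroph-like cells were at 1313 and 1073 CPM, melanotroph-like cells at 1218 and 1238 CPM and lactotroph-like cells at 1559 and 1270 CPM. Without the somatotroph-like cluster the folds were 1.13 and 1.18. Cycling genes moved with this cluster, whose S-phase list stood at 984 CPM and G2/M list at 724 CPM over both libraries, and their part in the histone level was not tested.

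The mixture of histone genes in endocrine-like cells was unlike that of cycling cells. Hist1h2bc was at 301 CPM (2.21-fold, 2.08 to 2.34) in male and 251 CPM (1.94-fold, 1.79 to 2.11) in female cells. Hist3h2ba was at 248 CPM (1.77-fold, 1.67 to 1.88) and 228 CPM (1.84-fold, 1.69 to 2.002), and Hist3h2a at 48.4 CPM (1.75-fold, 1.52 to 2.01) and 58.7 CPM (1.44-fold, 1.22 to 1.69). The 2 genes of the Hist3 cluster together held 20.6% and 19.6% of the histone UMIs of endocrine-like cells, 13.7% and 15.97% of those of quiescent cells, and 1.30% and 1.41% of those of S-phase cells. Among rarer genes, Hist2h3c1 was at 8.25 CPM (7.83-fold, 4.50 to 14.2) in male and 7.58 CPM (12.7-fold, 5.69 to 30.2) in female cells. Hist2h4 and Hist2h3c2, both of the Hist2 cluster and named after their values were seen, were at 4.80 and 4.41 CPM against 0.779 and 0.513 CPM in quiescent cells, and at 5.37 and 5.37 CPM against 0.0916 and 0.342 CPM. H4 genes were lower in sum, at 0.628-fold (0.597 to 0.661) and 0.876-fold (0.814 to 0.942). In all, 7 of 59 male (background 17.0%) and 19 of 55 female members (background 13.6%) were at least 2-fold higher, 6 of them in both, and 9 (background 14.3%) and 3 (background 14.1%) were at least 2-fold lower.

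Barcodes of low UMI count, which fall in 4 clusters whose cells over both libraries had a median depth, relative to the median of their own library, of less than 1 divided by 3, had a summed level of 5412 CPM (5354 to 5471) in 3276 male and 6971 CPM (6669 to 7282) in 103 female barcodes, 4.41-fold (4.31 to 4.52) and 6.74-fold (6.37 to 7.14) over quiescent cells. Of the members, 53 of 59 male (background 15.1%) and 44 of 55 female (background 13.5%) were at least 2-fold higher, 41 of them in both, and none was 2-fold lower (background 4.56% and 8.67%). Hist1h1b was at 705 CPM (684 to 726) and 716 CPM (621 to 820), and Hist1h2ap at 962 CPM (938 to 987) and 976 CPM (866 to 1098). Hist3h2ba, at 147 and 108 CPM, was within counting error of its quiescent level in both libraries. After thinning to 1000 UMIs, 16.9% of the 2096 male low-UMI barcodes of that depth had at least 10 histone UMIs, against 0.0475% of quiescent and 25.1% of S-phase cells. In the female library 3 of 71 such barcodes (4.23%) did, against 0 of 2550 quiescent cells and 19.8% of S-phase cells. This thinning left out 1180 male and 32 female low-UMI barcodes.

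The low-UMI barcodes were not of a kind. In the male library the 4 clusters stood at 2463 CPM (1884 barcodes), 6908 CPM (844), 3871 CPM (391) and 10328 CPM (157). The last of these had melanotroph markers such as Pomc and Pcsk2 among its leading genes. Phase genes moved with the histone level, the S-phase list being at 3.04-fold and the G2/M list at 24.8-fold of quiescent cells over all male low-UMI barcodes and at 4.19-fold and 70.4-fold over the female ones. Mitochondrial UMIs were 2.98% against 2.55% in quiescent cells of the male library and 5.499% against 3.61% in those of the female library. In the female library the value rested on a few deep barcodes. The 80 barcodes of the largest cluster stood at 707 CPM (567 to 871), below quiescent cells, with 7.12% mitochondrial UMIs, while 4 barcodes with a median of 13799.5 UMIs stood at 15251 CPM. With only those barcodes whose own count was below the library median divided by 3, the fold was 3.69 in male and 1.23 (1.03 to 1.46) in female cells. The part of cycling cells, of shared droplets or of RNA loss in these barcodes was not tested.

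The male library had more histone RNA than the female library in S-phase cells (8291 and 5721 CPM) and in quiescent cells (1226 and 1034 CPM), and less of a gap in G2/M cells (9664 and 9090 CPM). Among the 58 members with at least 10 UMIs in S-phase cells of both libraries, 11 were at least 2-fold higher in the male library (background 0.688%) and 1 at least 2-fold lower (background 0.774%), with a median ratio of 1.31 against 1.02 over all features. In quiescent cells 5 of 46 were higher (background 0.976%) and 1 lower (background 0.919%), and in G2/M cells 2 of 55 were higher (background 0.762%) and 5 lower (background 1.22%), with a median of 1.02. In endocrine-like cells 0 of 43 were at least 2-fold higher in the male library (background 1.2%) and 5 lower (background 2.28%), with a median of 0.971. In differentiating-like cells 4 of 45 were higher (Hist1h2ai, Hist1h2ap, Hist1h2bj and Hist1h3f, background 1.06%) and 0 lower (background 1.4%). In the intermediate cluster Hist1h2ap and Hist1h3e were the 2 of 24 that were higher (background 0.927%), and 0 were lower (background 1.18%). In low-UMI barcodes 0 of 25 were higher (background 1.43%) and 8 lower (background 5.36%), with a median of 0.560. Hist1h2ap was 2.504-fold (2.10 to 2.99) higher in male quiescent, 2.34-fold (2.26 to 2.43) in S-phase and 1.74-fold (1.65 to 1.83) in G2/M cells, but 0.942-fold (0.815 to 1.09) in endocrine-like cells. Hist1h2br and Hist1h2ai, named after their values were seen, were 3.97-fold and 2.80-fold higher in male S-phase cells, and Hist1h2an was 0.190-fold (0.128 to 0.2796), at 4.49 CPM in male and 23.6 CPM in female cells. Unique windows made up 0% (Hist1h2br), 7.65% (Hist1h2ap), 11.2% (Hist1h2ai) and 16.2% (Hist1h2an) of the 3' ends of these 4 genes, and S-phase cells were also deeper in the male library, with medians of 16012.5 and 12176 UMIs.

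Genes that act on histone RNA and protein moved in part with the histone genes. Of 16 genes of histone mRNA processing found in the files, 7 of 16 male and 7 of 15 female genes with enough UMIs were at least 2-fold higher in S phase (background 6.54% and 6.17%), with median folds of 1.66 and 1.94. Slbp, which encodes the stem-loop binding protein, went from 70.2 to 261 CPM (3.72-fold, 3.43 to 4.04) in male and from 70.2 to 288 CPM (4.11-fold, 3.76 to 4.49) in female cells and stood at 94.9 and 107 CPM in the G2/M class. Along the ordering by G2/M share, which does not use the S and G2/M classes, Slbp was highest at 40 to 50% in male cells (422 CPM) and at 50 to 60% in female cells (535 CPM), next to the bins where summed histone RNA was highest, and it was at 48.5 and 66.3 CPM above 90%. Casp8ap2, which encodes the FLASH protein of the histone processing complex, was 2.75-fold (2.44 to 3.11) and 2.70-fold (2.36 to 3.09) higher. Cpsf2 and Ncbp1, with roles in 3' cleavage and cap binding, were between 1.21-fold and 1.67-fold higher, Upf1, which takes part in histone mRNA decay, was at 1.27-fold and 1.32-fold, and Lsm10 was within counting error at 1.06-fold and 1.04-fold.

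Among 15 histone chaperone and deposition genes, the same 8 were at least 2-fold higher in S phase in both libraries (Nasp, Asf1b, Chaf1a, Chaf1b, Hat1, Hirip3, Mcm2 and Ssrp1, background 6.54% and 6.17%), with median folds of 2.17 and 2.22. Nasp, a chaperone of H3 and H4, went from 121 to 402 CPM (3.33-fold, 3.13 to 3.55) and from 120 to 447 CPM (3.73-fold, 3.48 to 4.001). Ssrp1 and Supt16, which form the FACT complex, were at 2.17-fold and 1.59-fold in male and at 2.22-fold and 1.59-fold in female cells. Rbbp4 and Rbbp7, which bind H4 in several complexes, were between 1.51-fold and 1.77-fold higher, and Asf1a, another H3 and H4 chaperone, was at 1.17-fold and 1.27-fold. Mcm2, Ccne1 and Ccne2 are also in the S-phase list and Cenpa in the G2/M list that named the classes, so their direction was set by that choice.

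Replication-independent histone genes encode variants that most cells also make outside S phase, mainly from polyadenylated mRNAs. Of 11 such genes, 3 were at least 2-fold higher in S phase in both libraries (H2afz, H2afx and Cenpa, background 6.54% and 6.17%) and 5 in G2/M (also H2afv and H1fx, background 7.24% and 6.11%). H2afx is known also to give a stem-loop mRNA, and Cenpa, the centromeric H3 variant, to be expressed mainly in G2. H3f3a, an H3.3 gene, was at 3375 CPM in quiescent and 3302 CPM in S-phase male cells and at 3322 and 3391 CPM in female cells, a fold of 0.979 (0.963 to 0.994) and 1.02 (1.002 to 1.04). H3f3b, the other H3.3 gene, was at 0.869-fold (0.857 to 0.880) and 0.826-fold (0.813 to 0.840). H2afz, which encodes H2A.Z, was 3.14-fold (3.06 to 3.22) and 3.38-fold (3.28 to 3.49) higher in S-phase cells and 4.95-fold and 5.86-fold in G2/M cells. H2afv, its close relative, was 1.72-fold and 1.81-fold higher in S phase, H2afy, which encodes macroH2A, 1.41-fold and 1.40-fold, and H1f0, a linker histone of resting cells, was at 0.866-fold (0.823 to 0.911) and 0.759-fold (0.716 to 0.805).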

How the data were processed

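The deposited files hold raw counts: UMIs per gene and barcode as whole numbers, which the authors made with Cell Ranger and STAR against mm10 transcripts plus eGFP, for barcodes called as cells and without normalization or the cell filters of the methods. The submitters' processing notes name R 3.6.0 and Seurat 3 and 4. The labels name both v2.0 and v3 chemistry and the methods v2, and the chemistry was not settled here. Totals were 105883748 UMIs (male) and 62830305 UMIs (female) in the cells kept.

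From these counts, barcodes with under 50 genes or with a mitochondrial share over 3 SD above the library mean were removed (159 male, 85 female). The libraries were integrated in Seurat 5.3.0 (R 4.3.3) on 2000 variable genes without the histone genes, with 20 components and a resolution of 0.8, which the methods do not give. Clusters were named from marker lists, and differences from the study may come from these rebuilt names. No doublet was removed, as in the methods, and the cells of highest Scrublet score (scanpy 1.11.5, 867 male and 261 female) were left out as an alternative. Levels and folds were computed in Python 3.11.15 with scipy 1.17.1. A class at 0 was set to a floor of 3 counts, and a fold of 2 was the limit for a call over features with at least 50 UMIs. Sequence uniqueness is the share of 91-base windows in the last 500 bases of a transcript that occur in no transcript of another gene. The computation of folds was checked on simulated Poisson counts with known changes, drawn from the male quiescent and S-phase sums. These counts hold no spread between cells, shared sequence or clustering error, so the effect of those on the folds was not tested there.

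Genes were named by rule: the 15 members with most UMIs, the 5 of highest and 5 of lowest pooled S-phase fold among those with at least 100 UMIs, and the 6 of most UMIs in each list of related genes. Of the others, some are said to be named after their values were seen. The rest were named with values known, mostly because a count called them, their UMIs were fewest or they share sequence with a named gene. The members, lists and alternatives were chosen with earlier results of these data known. No library was assigned by its values, and no column belonged to another sample.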

Additional observations from a re-analysis of the deposited data

Results flagged for a closer look

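Histone UMIs were also present in the barcodes that the filters removed and that no comparison used. In the male library 159 such barcodes held 158 histone UMIs, or 1011.92 CPM (860 to 1183), and in the female library 85 barcodes held 28, or 415.098 CPM (276 to 600). There are no control samples, and these levels lie above the 3 counts that a count of 0 allows. They were below the quiescent SC-like level in both libraries. The rules for outlying samples and for differences between groups could not be applied with 1 library per sex.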

How the results depend on the processing

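Of 98 alternative values, 41 moved by less than counting error, 56 moved by more and 1 changed direction. Of the alternatives, 78 were planned and 20 were chosen after seeing the data. Values are folds over quiescent SC-like cells, male then female. No paired analysis was possible because no value comes from a test, the classes being clusters of the same cells. Leaving out a library leaves no second one to compare. For S-phase cells the folds were 7.24 and 5.999 at resolution 1.2, 7.91 and 7.11 with histone genes kept among the variable genes, 7.15 and 5.69 with at least 1000 genes per cell, 6.497 and 4.80 as means over cells, 4.74 and 3.01 with the phase set per cell, 5.65 and 5.02 with uniquely mappable members, and 6.24 and 5.10 with the intermediate cluster counted as quiescent. For G2/M cells they were 6.47 and 6.84 at resolution 0.4, 6.97 and 8.04 at 1.2, 1.37 and 1.40 with histone genes kept, 7.55 (male) with 1000 genes, 8.49 (male) as means, 9.62 and 10.6 per cell, 6.79 and 8.10 with mappable members, and 6.55 and 6.88 or 7.27 and 8.11 with the intermediate cluster counted as G2/M or as quiescent. For differentiating-like cells, mappable members gave 0.933, which reversed the male direction, and 0.902. For endocrine-like cells the folds were 1.27 and 1.48 at resolution 1.2, 1.12 (male) with histone genes kept, 1.49 (female) with 1000 genes, 1.22 (female) without the cells of highest Scrublet score, 1.21 and 1.30 as means, and 1.13 and 1.18 without the somatotroph-like cluster. For low-UMI barcodes they were 4.80 and 7.69 at resolution 0.4, 4.31 and 3.09 at 1.2, 4.86 and 7.53 with histone genes kept, 5.24 and 12.8 with 1000 genes, 4.82 and 5.71 without the highest Scrublet scores, 3.58 and 1.75 as means, 3.67 and 5.96 with mappable members, and 3.69 and 1.23 with only barcodes below the library median divided by 3. The cause of each move was not tested. The count of members at least 2-fold higher in S phase was 43 of 50 and 35 of 40 from 200 UMIs (5.85% and 5.54% of all features), and 54 of 59 and 48 of 55 at resolution 1.2 (6.53% and 6.04%). The female low-UMI value is limited by depth, with 2006 histone UMIs in 103 barcodes.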

Other observations

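Histone levels were measured in 3 further groups of cells. Extra-pituitary mesenchyme-like cells, with fibroblast markers, had 1664 CPM (1632 to 1696) in 597 male and 823 CPM (790 to 856) in 327 female cells. After thinning to 5000 UMIs, 11 male and 3 female cells of this class held at least 50 histone UMIs, while the medians were 3 and 2, below those of quiescent SC-like cells. Pituicyte-like cells, glia of the posterior lobe, had 1551 CPM (1456 to 1650) in 56 male and 1430 CPM (1342 to 1522) in 73 female cells, and none reached 50 histone UMIs. A cluster with a high share of top Scrublet scores had 1265 CPM (1223 to 1308) in 122 male and 976 CPM (913 to 1042) in 43 female cells. A small unnamed cluster led by Rgs5, Kcnj8 and Vtn had 721 CPM in 25 male and 6558 CPM in 7 female cells, and 1 of the 4 female cells with at least 5000 UMIs held 97 histone UMIs of 5000.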
